A study of Homo sapiens with 12 samples.

Results

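The response of control HT-29 cells to a necroptosis-inducing treatment was examined in 4 of the 12 libraries of the series. HT-29 is a human colorectal adenocarcinoma line. The cells are labelled shGFP, a name for a short hairpin RNA against GFP, with no gene knockdown given; how the hairpin was introduced is not given in the sources used here. They were compared under DMSO (2 libraries) and after 5 h of TBZ (2 libraries), where TBZ combines TNFα (20 ng/mL) with the SMAC mimetic BV6 (2 µM) and the caspase inhibitor zVAD-fmk (30 µM). The labels do not state how long the DMSO cells were kept in the vehicle. The 4 libraries were taken from the experiment that also holds cells with a lentiviral MLKL knockdown (shMLKL) under the same conditions, 2 libraries each. A separate experiment holds parental HT-29 cells, with 1 DMSO library and 1 library of 4 h TBZ, with 2 shMLKL libraries that are not used here. Since the labels do not tie libraries of one group to separate cultures, the spread behind each p-value is that of these samples and could be technical.

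TNFα binding to its receptor assembles a complex in which ubiquitin chains drive NF-kB and MAP kinase signalling. BV6 antagonises the inhibitor of apoptosis proteins that build such chains, and zVAD-fmk blocks the caspases that would otherwise cut RIPK1 and RIPK3. RIPK3 then phosphorylates MLKL, a pseudokinase that moves to the plasma membrane and permeabilises it. Cells that die in this way can still change their transcription beforehand. The results below concern gene groups beyond the top inflammatory genes: metabolism, transport, transcription factors, RNA handling and the cell surface. These groups were not cleared of inflammatory genes, and members such as PTGS2, IRF1 and ZFP36 may belong to both.

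Values are FPKM (fragments scaled for transcript length and for the mapped fragments of the library), and changes are differences of log2(FPKM + 1), TBZ minus DMSO, which understate the change of low genes. A gene was called when its Benjamini-Hochberg adjusted p from limma was under 0.05, and such genes are said to have risen or fallen. Of the 10364 genes whose mean reached 1 FPKM in some group, 1980 (19.1%) rose and 3864 (37.3%) fell. Both libraries of a group gave values beyond both libraries of the other for 26.6% of genes upward and for 54.2% downward. Genes named by rule as rises or falls had to meet this, so non-overlap of a named gene adds no support. Most falls were small: 156 genes (1.51%) fell and 381 (3.68%) rose by at least 2-fold. The median over all genes tested was -0.12 as deposited, and rises were 33.9% of the calls. With the medians of the libraries set equal the median was -0.057 and rises were 44.5% of the calls (2345 rises and 2927 falls). With quantile normalization the median was -0.075, with 2263 rises and 3390 falls. A share of falls in a gene group therefore has to be read against a background in which falls outnumber rises. In bulk RNA, fewer cells of a kind and less RNA per cell cannot be told apart.

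MLKL itself was low in the control line and lay at 3.95 and 3.88 FPKM under DMSO and at 1.98 and 2.03 FPKM after TBZ (log2 change -0.71, SE 0.096, limma adjusted p = 5.95e-04). The shMLKL libraries had between 0.395 and 0.651 FPKM of it, below every shGFP library. Relative depth lay between 82.9 and 100.0% of the deepest of the 8 libraries, and libraries of a group correlated at 0.9895 (DMSO) and 0.9917 (TBZ) across genes, which are not independent replicates. Summed FPKM of 16 colonic epithelial markers was 824 and 825 under DMSO and 816 and 823 after TBZ, but its members moved apart. Of the 11 tested 2 rose and 6 fell (18.2% and 54.5%), with KRT20, a keratin of differentiated colonocytes, rising from 86.1 and 89.3 FPKM to 209 and 209 FPKM and EPCAM, an epithelial adhesion protein, falling from 364 and 363 FPKM to 320.3 and 312.5 FPKM. KRT8 and KRT18, keratins that HT-29 cells are known to express, were listed at 0 in all 4 libraries, so a value of exactly 0 in this table can be a failed estimate. CDX2, a defining intestinal factor, stood at 0.208 FPKM or less. Of 15 leukocyte markers, CD3D, CD3E, MS4A1, NKG7 and TYROBP were at 0 in all 4 libraries and PTPRC did not exceed 0.061 FPKM. Others were detected: CD68 lay at 4.23 to 5.30 FPKM, LAPTM5 at 1.34 to 1.76 FPKM and CD14 at 0.081 to 1.38 FPKM. The sum over the 15 markers, 607 and 615 FPKM under DMSO and 531 and 528 FPKM after TBZ, was nearly all LYZ, lysozyme. Sums over 14 fibroblast and endothelial markers were 2.47 to 3.48 FPKM and over 11 kidney and liver markers 0.21 to 0.335 FPKM.

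**Figure D1:**
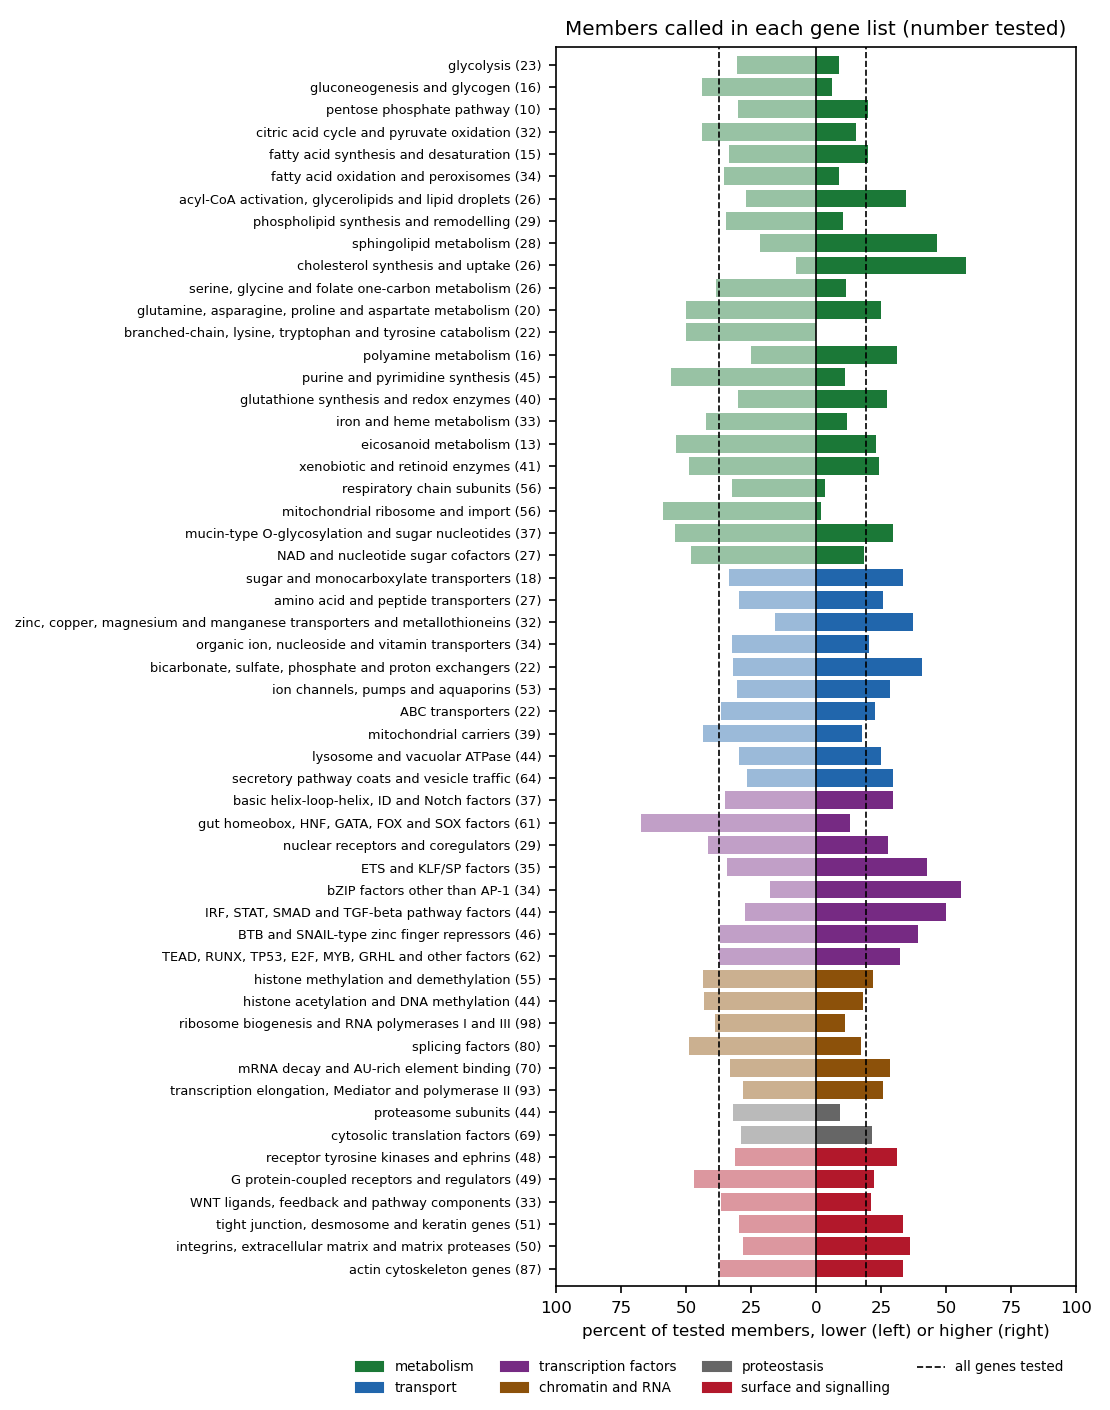
Percent of the tested members of 55 gene lists that rose (right, dark bars) or fell (left, pale bars) after TBZ in shGFP cells, with the number tested in brackets and the list's category as colour. Dashed lines mark all genes tested, 19.1% higher and 37.3% lower; cholesterol, bZIP and IRF/STAT/SMAD lists reach farthest to the right and gut homeobox factors farthest to the left.

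Central carbon metabolism moved little as a group, but single regulatory enzymes changed strongly. Among 23 glycolytic genes 2 rose and 7 fell, and the median was -0.011 as deposited, 0.053 when library medians were made equal, and -0.13 under quantile normalization. PFKFB3, which makes the fructose 2,6-bisphosphate that activates glycolysis, lay at 2.76 and 2.31 FPKM under DMSO and at 10.4 and 10.3 FPKM after TBZ (log2 change 1.69, SE 0.081, limma adjusted p = 2.52e-06). Both treated libraries were about 4-fold above the controls. GAPDH, the most abundant member, lay at 951 and 972 FPKM under DMSO and at 955 and 952 FPKM after TBZ, and its log2 change was -0.01 (SE 0.036). HK1, which phosphorylates glucose, fell from 28.8 and 28.4 FPKM to 21.6 and 20.3 FPKM.

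Of 16 genes of gluconeogenesis and glycogen 7 fell and 1 rose. PYGB, the glycogen phosphorylase found in brain and many tumour lines, lay at 119.5 and 124 FPKM under DMSO and at 76.9 and 75.1 FPKM after TBZ (log2 change -0.67, SE 0.037, limma adjusted p = 5.48e-06). FBP1, a gluconeogenic phosphatase, lay at 19.7 and 20.0 FPKM under DMSO and at 12.9 and 13.1 FPKM after TBZ (log2 change -0.58, SE 0.059, limma adjusted p = 1.48e-04). Neither gene's treated values overlapped its controls, a condition of being named. The citric acid cycle list had 5 rises (15.6%) and 14 falls (43.8%) among 32 genes, against 19.1% and 37.3% of all genes. The falls numbered 7 with library medians set equal. OGDH, a subunit of the 2-oxoglutarate dehydrogenase complex, was among the rises (from 14.5 and 14.4 FPKM to 23.8 and 23.8 FPKM). IDH1, the cytosolic isocitrate dehydrogenase, fell by 0.32 on the log2 scale and DLAT, a pyruvate dehydrogenase subunit, by 0.32.

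Among lipid enzymes, 2 elongases of fatty acids moved in opposite directions. ELOVL7, an elongase of very long saturated fatty acids, lay at 3.68 and 3.64 FPKM under DMSO and at 21.3 and 21.5 FPKM after TBZ (log2 change 2.26, SE 0.067, limma adjusted p = 2.01e-07). ELOVL6, the elongase of palmitate, moved the other way, with values of 20.8 and 21.4 FPKM under DMSO and at 11.6 and 12.6 FPKM after TBZ (log2 change -0.75, SE 0.058, limma adjusted p = 3.22e-05). Neither elongase had overlapping groups, a condition of being named. PEX5, the import receptor of peroxisomes, and the mitochondrial CPT2 fell by 0.68 and 0.49 on the log2 scale, and the 34 genes of fatty acid oxidation and peroxisomes had 3 rises (8.82%) and 12 falls (35.3%, against 37.3% of all genes).

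Of 26 genes of acyl-CoA activation, glycerolipids and lipid droplets 9 (34.6%) rose and 7 (26.9%) fell. LPIN1, a phosphatidate phosphatase and transcriptional coactivator, lay at 1.89 and 1.82 FPKM under DMSO and at 6.89 and 6.72 FPKM after TBZ (log2 change 1.45, SE 0.091, limma adjusted p = 1.04e-05). PNPLA8, a calcium-independent phospholipase, rose from 11.8 and 12.7 FPKM to 27.3 and 28.2 FPKM (log2 change 1.12), and PNPLA2, the adipose triglyceride lipase, from 19.0 and 20.4 FPKM to 28.8 and 27.6 FPKM (0.49). HILPDA, an inhibitor of that lipase, fell from 4.55 and 5.52 FPKM to 2.82 and 2.04 FPKM (limma adjusted p = 0.0016).

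Sphingolipid genes had more rises than falls under each scaling tried: 13 rises and 6 falls among 28 as deposited, and 15 and 6 both when library medians were made equal and under quantile normalization. SGPP2, which removes the phosphate from sphingosine 1-phosphate, lay at 8.82 and 10.1 FPKM under DMSO and at 66.0 and 66.7 FPKM after TBZ (log2 change 2.69, SE 0.086, limma adjusted p = 2.77e-07). The treated libraries were 7 times the controls by their means. SGMS2, the plasma membrane sphingomyelin synthase, lay at 13.3 and 13.98 FPKM under DMSO and at 33.6 and 33.0 FPKM after TBZ (log2 change 1.23, SE 0.042, limma adjusted p = 4.18e-07). UGCG, which adds glucose to ceramide, lay at 13.4 and 15.1 FPKM under DMSO and at 30.2 and 29.6 FPKM after TBZ (log2 change 1.02, SE 0.067, limma adjusted p = 1.41e-05). For all 3 enzymes every treated value exceeded every control value, a condition of being named. SPTLC2 (a subunit of serine palmitoyltransferase) and CERS2 (a ceramide synthase), which act in ceramide synthesis, fell from 27.3 and 27.6 FPKM to 18.4 and 18.5 FPKM and from 50.8 and 53.4 FPKM to 40.1 and 38.3 FPKM. UGT8, which adds galactose to ceramide, also fell, from 14.2 and 12.7 FPKM to 7.37 and 6.21 FPKM, unlike UGCG.

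Sterol genes are given only by count, with 15 rises, 8 of them at least 2-fold, and 2 falls among 26 (18 and 1 with library medians set equal). NPC1, which carries cholesterol out of the lysosome, lay at 6.67 and 7.23 FPKM under DMSO and at 17.1 and 17.1 FPKM after TBZ (log2 change 1.19, SE 0.048, limma adjusted p = 9.23e-07). The transcription factor gene SREBF1, which drives fatty acid synthesis, fell from 9.27 and 9.71 FPKM to 6.96 and 6.95 FPKM, and SCD, the most abundant fatty acid desaturase, had a log2 change of -0.04 (SE 0.034), which turned to 0.022 with library medians set equal.

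GLUL, which makes glutamine, lay at 6.68 and 6.95 FPKM under DMSO and at 4.26 and 4.38 FPKM after TBZ (log2 change -0.55, SE 0.060, limma adjusted p = 1.90e-04). Both treated values lay below both controls, a condition of being named. ASS1, of arginine synthesis, rose from 12.5 and 11.8 FPKM to 20.6 and 20.5 FPKM, and ASNS, asparagine synthetase, from 297 and 309.7 FPKM to 424 and 424 FPKM. In the polyamine list SMOX, spermine oxidase, lay at 9.67 and 9.90 FPKM under DMSO and at 24.8 and 20.5 FPKM after TBZ (log2 change 1.13, SE 0.079, limma adjusted p = 1.90e-05). SAT1, which acetylates spermidine and spermine for breakdown or export, lay at 52.0 and 56.7 FPKM under DMSO and at 97.7 and 96.7 FPKM after TBZ (log2 change 0.83, SE 0.051, limma adjusted p = 9.25e-06). The synthases SRM and SMS and the decarboxylase AMD1 fell by 0.40, 0.25 and 0.23 on the log2 scale. AZIN1 of the same list rose by 0.26. ODC1, the most abundant member of the list, was not called (log2 change 0.021, SE 0.035). Over the 16 polyamine genes 5 rose and 4 fell. MAT2A, which makes S-adenosylmethionine, fell from 161 and 162 FPKM to 95.3 and 90.6 FPKM (log2 change -0.79, SE 0.039, limma adjusted p = 2.85e-06). None of 22 genes of branched-chain, lysine, tryptophan and tyrosine catabolism rose and 11 fell as deposited, against 2 and 8 with library medians set equal.

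Nucleotide synthesis leaned lower, with 25 falls (55.6%) and 5 rises (11.1%) among 45 genes, against 37.3% and 19.1% of all genes. With library medians set equal there were 18 falls and 6 rises. Salvage and breakdown enzymes were among the rises: UPP1, uridine phosphorylase, rose from 5.70 and 5.87 FPKM to 12.6 and 12.6 FPKM (log2 change 1.005), and PNP, purine nucleoside phosphorylase, from 14.6 and 14.8 FPKM to 28.2 and 25.1 FPKM (0.82). UCK2, the kinase that salvages uridine and cytidine, fell from 12.8 and 12.98 FPKM to 7.64 and 7.61 FPKM and DTYMK, the thymidylate kinase, from 8.56 and 7.85 FPKM to 5.42 and 5.24 FPKM. Genes of DNA replication and mitosis moved with this list: 40 of 58 (69.0%) fell and 5 (8.62%) rose. Their part in the nucleotide result was not tested.

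Mitochondrial gene expression machinery fell by small amounts across many genes. Of 56 genes of the mitochondrial ribosome and import 33 (58.9%, against 37.3% of all genes) fell and 1 rose, with a median of -0.26. With library medians set equal 26 (46.4%, against 28.2% of all genes) fell and 4 rose. MRPL12, a large subunit protein, lay at 34.8 and 33.3 FPKM under DMSO and at 23.3 and 21.7 FPKM after TBZ (log2 change -0.58, SE 0.060, limma adjusted p = 1.49e-04). MRPS14, of the small subunit, fell from 10.97 and 11.4 FPKM to 7.07 and 7.33 FPKM. TOMM34, a cochaperone of import, was the single rise (from 29.4 and 29.4 FPKM to 54.2 and 52.7 FPKM). Taken by symbol, none of 77 MRPL and MRPS genes rose and 42 (54.5%) fell, while of 80 genes of the cytosolic ribosome 1 rose and 3 (3.75%) fell. Under quantile normalization the cytosolic count turned to 39 falls, so this contrast holds only without that scaling. The 56 respiratory chain genes had 18 falls (32.1%, against 37.3% of all genes) and 2 rises (3.57%) as deposited. They had 8 and 2 when library medians were made equal, and 34 and 2 under quantile normalization. NDUFV2, of complex I, and CYCS, cytochrome c, were the rises (from 95.0 and 92.0 FPKM to 128 and 128 FPKM and from 40.9 and 41.7 FPKM to 51.6 and 53.7 FPKM).

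Redox genes changed in both directions. GCLC, the catalytic subunit of glutathione synthesis, lay at 35.9 and 39.9 FPKM under DMSO and at 125 and 126 FPKM after TBZ (log2 change 1.70, SE 0.048, limma adjusted p = 1.59e-07). TXNRD1, thioredoxin reductase, lay at 137 and 153 FPKM under DMSO and at 480.4 and 466 FPKM after TBZ (log2 change 1.70, SE 0.051, limma adjusted p = 2.26e-07). TXNIP, which binds thioredoxin and restrains glucose uptake, lay at 36.5 and 38.7 FPKM under DMSO and at 13.5 and 14.4 FPKM after TBZ (log2 change -1.37, SE 0.058, limma adjusted p = 1.30e-06). The reductase and the inhibitor of the same system moved apart. SLC7A11, the cystine importer that feeds glutathione synthesis, rose from 42.6 and 45.4 FPKM to 82.1 and 82.5 FPKM (log2 change 0.89). Of the 40 genes of this list 11 rose and 12 fell, and 13 and 5 with library medians set equal.

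Among NAD genes, NAMPT, the rate-limiting salvage enzyme, lay at 81.7 and 91.5 FPKM under DMSO and at 131 and 134 FPKM after TBZ (log2 change 0.61, SE 0.052, limma adjusted p = 5.61e-05). SIRT1, an NAD-dependent deacetylase, lay at 9.50 and 9.60 FPKM under DMSO and at 27.0 and 24.8 FPKM after TBZ (log2 change 1.35, SE 0.057, limma adjusted p = 1.29e-06). QPRT, of the synthesis route from tryptophan, fell from 6.69 and 6.12 FPKM to 3.78 and 3.90 FPKM and NADK2, the mitochondrial NAD kinase, from 6.56 and 7.19 FPKM to 4.27 and 4.22 FPKM. The list had 5 rises (18.5%) and 13 falls (48.1%) among 27, against 19.1% and 37.3% of all genes. In the iron list SLC40A1, ferroportin, the iron exporter, averaged 11.1 ± 0.0682 FPKM under DMSO and 3.43 ± 0.441 FPKM after TBZ, with the SD of 2 libraries each (log2 change -1.45, SE 0.12, limma adjusted p = 3.91e-05). ALAS1, the first enzyme of heme synthesis, rose from 22.7 and 21.4 FPKM to 38.1 and 38.2 FPKM, and the metalloreductases STEAP1 and STEAP2 fell by 0.59 and 0.60 on the log2 scale.

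Among xenobiotic enzymes 2 inducible cytochromes rose. CYP1A1, a cytochrome P450 induced through the aryl hydrocarbon receptor, lay at 0.209 and 0.277 FPKM under DMSO and at 12.8 and 12.6 FPKM after TBZ (log2 change 3.46, SE 0.11, limma adjusted p = 3.35e-07). CYP1B1, its relative, lay at 8.98 and 9.45 FPKM under DMSO and at 35.7 and 36.1 FPKM after TBZ (log2 change 1.85, SE 0.060, limma adjusted p = 3.16e-07). Control values of CYP1A1 were near 0, while CYP1B1 was already expressed under DMSO. In the parental libraries CYP1A1 had 0.0587 FPKM under DMSO and 0.0744 FPKM after TBZ and CYP1B1 4.20 FPKM under DMSO and 2.69 FPKM after TBZ. Of 41 genes of this list 10 (24.4%) rose and 20 (48.8%) fell, against 19.1% and 37.3% of all genes, among the falls ALDH3B1 and CES2 (by 0.77 and 0.71 on the log2 scale). In the eicosanoid list PTGS2 and PTGES, which act in sequence to make prostaglandin E2, both rose, from 2.87 and 3.07 FPKM to 10.5 and 9.69 FPKM and from 2.61 and 2.34 FPKM to 8.96 and 8.43 FPKM. ALOX5, of leukotriene synthesis, fell from 8.09 and 6.88 FPKM to 4.76 and 4.05 FPKM.

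Of 37 genes that build glycan chains 20 (54.1%) fell and 11 (29.7%) rose, both above the shares over all genes (15 and 11 under both other scalings). GCNT3, which branches mucin O-glycans, averaged 197 ± 3.70 FPKM under DMSO and 76.0 ± 1.82 FPKM after TBZ, with the SD of 2 libraries each (log2 change -1.37, SE 0.035, limma adjusted p = 1.13e-07). B3GNT3, which extends core 1 chains, lay at 13.8 and 12.8 FPKM under DMSO and at 6.90 and 6.65 FPKM after TBZ (log2 change -0.88, SE 0.084, limma adjusted p = 1.07e-04). B3GNT5, which starts lacto-series glycolipids, lay at 14.2 and 17.0 FPKM under DMSO and at 74.0 and 73.3 FPKM after TBZ (log2 change 2.18, SE 0.070, limma adjusted p = 2.99e-07). The mucin branching gene and the glycolipid gene moved in opposite directions. ST3GAL1, a sialyltransferase that caps core 1, rose from 51.7 and 56.3 FPKM to 103 and 101.1 FPKM, whereas GNE, the first enzyme of sialic acid synthesis, fell from 14.5 and 14.6 FPKM to 7.93 and 7.78 FPKM.

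**Figure D2:**
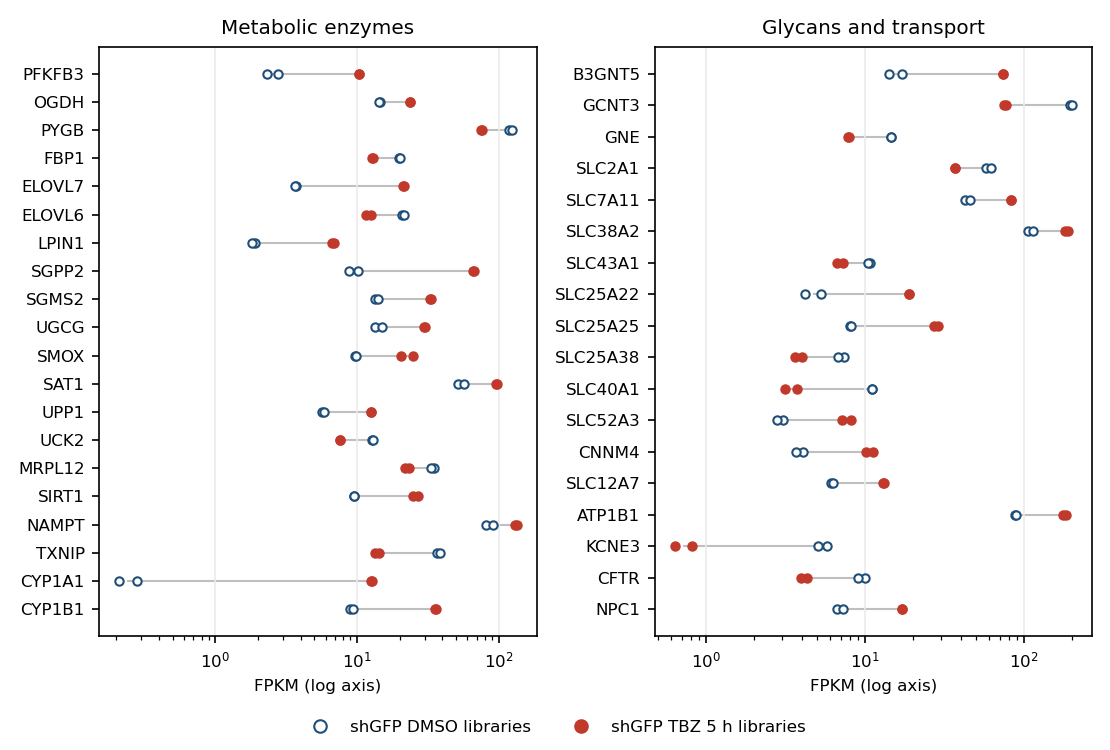
FPKM (log axis) of selected metabolic enzymes (left panel) and of glycan and transport genes (right panel) in the 4 shGFP libraries, open points for DMSO and filled points for TBZ, with a grey line between group means. For every gene drawn the points of one condition lie on one side of those of the other, which was a condition of being named. Of all genes tested 26.6% upward and 54.2% downward also met it. Examples are CYP1A1 (at most 0.277 against at least 12.6) and KCNE3 (at least 5.03 against at most 0.811).

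Of 355 transport genes in 10 lists 98 (27.6%) rose and 108 (30.4%) fell, a balance that turned to 113 and 78 with library medians set equal. Solute carriers taken by symbol gave 47 rises and 61 falls among 179, and 52 and 48 with library medians set equal. SLC2A1, the glucose carrier GLUT1, lay at 57.2 and 61.8 FPKM under DMSO and at 36.5 and 36.8 FPKM after TBZ (log2 change -0.68, SE 0.043, limma adjusted p = 1.17e-05). SLC38A2, an importer of small neutral amino acids, lay at 105 and 114 FPKM under DMSO and at 188 and 180.0 FPKM after TBZ (log2 change 0.74, SE 0.043, limma adjusted p = 6.94e-06). SLC43A1, a carrier of branched-chain and aromatic amino acids, fell from 10.7 and 10.4 FPKM to 7.21 and 6.64 FPKM, and the glutamate carrier SLC1A1 from 14.98 and 14.7 FPKM to 10.4 and 9.59 FPKM. The glucose carrier was lower and the importer of small neutral amino acids higher in each treated library.

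Mitochondrial carriers held 2 genes that rose at least 2-fold among 39. SLC25A22, a glutamate carrier, lay at 5.25 and 4.21 FPKM under DMSO and at 18.8 and 18.8 FPKM after TBZ (log2 change 1.80, SE 0.10, limma adjusted p = 5.74e-06). SLC25A25, a calcium-regulated ATP-magnesium and phosphate carrier, lay at 8.06 and 8.18 FPKM under DMSO and at 27.1 and 28.5 FPKM after TBZ (log2 change 1.66, SE 0.053, limma adjusted p = 2.84e-07). SLC25A38, which brings glycine in for heme synthesis, fell from 7.39 and 6.76 FPKM to 3.63 and 3.99 FPKM. In all 7 carriers rose and 17 fell. CNNM4, a magnesium exporter of the basolateral membrane, lay at 4.08 and 3.65 FPKM under DMSO and at 11.3 and 10.1 FPKM after TBZ (log2 change 1.26, SE 0.069, limma adjusted p = 5.04e-06). Metal transporters and metallothioneins had 12 rises and 5 falls among 32, and SLC52A3, a riboflavin importer, rose from 3.03 and 2.77 FPKM to 7.11 and 8.11 FPKM.

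Ion transport across the epithelium shifted between genes. KCNE3, the beta subunit of the basolateral potassium channel that supports chloride secretion, lay at 5.77 and 5.03 FPKM under DMSO and at 0.811 and 0.633 FPKM after TBZ (log2 change -1.89, SE 0.094, limma adjusted p = 2.91e-06). CFTR, the apical chloride channel, lay at 9.94 and 8.96 FPKM under DMSO and at 4.31 and 3.94 FPKM after TBZ (log2 change -1.03, SE 0.085, limma adjusted p = 4.72e-05). ATP1B1, the beta subunit of the sodium pump, lay at 88.0 and 88.6 FPKM under DMSO and at 176 and 183 FPKM after TBZ (log2 change 1.01, SE 0.033, limma adjusted p = 3.31e-07). Both secretion genes were lower in each treated library and the pump subunit was higher. Volume-regulated anion channel subunits diverged, with LRRC8B rising from 5.74 and 5.93 FPKM to 11.5 and 11.8 FPKM and LRRC8D falling from 11.4 and 11.7 FPKM to 6.08 and 5.89 FPKM. SLC12A7, a potassium chloride cotransporter, rose from 6.09 and 6.22 FPKM to 12.9 and 13.1 FPKM. Of the 53 channels, pumps and aquaporins 15 rose and 16 fell, and 15 and 14 with library medians set equal.

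Secretory pathway genes leaned with the scaling, from 19 rises and 17 falls among 64 as deposited to 27 and 10 with library medians set equal. STX5, a Golgi SNARE, rose from 14.1 and 14.6 FPKM to 22.1 and 23.9 FPKM, and SEC24A, of the COPII coat, from 8.89 and 8.84 FPKM to 13.8 and 14.2 FPKM. EXOC1, of the exocyst, fell from 16.1 and 15.6 FPKM to 10.6 and 10.7 FPKM, and RAB11A, of recycling endosomes, from 66.7 and 63.3 FPKM to 47.7 and 47.1 FPKM. ARL14, a small GTPase of vesicle movement, was among the 15 largest rises and lay at 6.51 and 8.18 FPKM under DMSO and at 142 and 136 FPKM after TBZ (log2 change 4.07, SE 0.12, limma adjusted p = 1.67e-07).

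Transcription factors changed in both directions: 121 of 348 (34.8%) rose and 136 (39.1%) fell, 37 and 26 of them by at least 2-fold, and with library medians set equal 129 rose and 124 fell. The HOX genes moved one way; they are homeobox factors that set position along the gut. None of the 20 HOX cluster genes tested rose and 19 fell, 12 of them at least 2-fold, with a median of -1.18. The group was taken by symbol with its values known; 19 fell with library medians set equal and 18 under quantile normalization, against 37.3% of all genes as deposited. HOXA13 (chr7:27236499-27239725 in hg19), the most posterior gene of its cluster, lay at 10.7 and 10.3 FPKM under DMSO and at 1.51 and 1.17 FPKM after TBZ (log2 change -2.30, SE 0.081, limma adjusted p = 4.78e-07). HOXB5 (chr17:46668619-46671103) lay at 7.12 and 6.12 FPKM under DMSO and at 0.971 and 0.796 FPKM after TBZ (log2 change -2.02, SE 0.093, limma adjusted p = 2.08e-06). HOXB9, the HOX gene of highest level, lay at 77.2 and 77.2 FPKM under DMSO and at 51.4 and 50.9 FPKM after TBZ (log2 change -0.59, SE 0.040, limma adjusted p = 1.64e-05). The fall was thus 7.84-fold at HOXA13 and 1.51-fold at HOXB9 by means, and no treated value overlapped a control value in any of the 3. HOXA6, named after its values were seen, was not called, with 0.938 and 1.63 FPKM under DMSO and at 0.878 and 0.295 FPKM after TBZ.

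**Figure D3:**
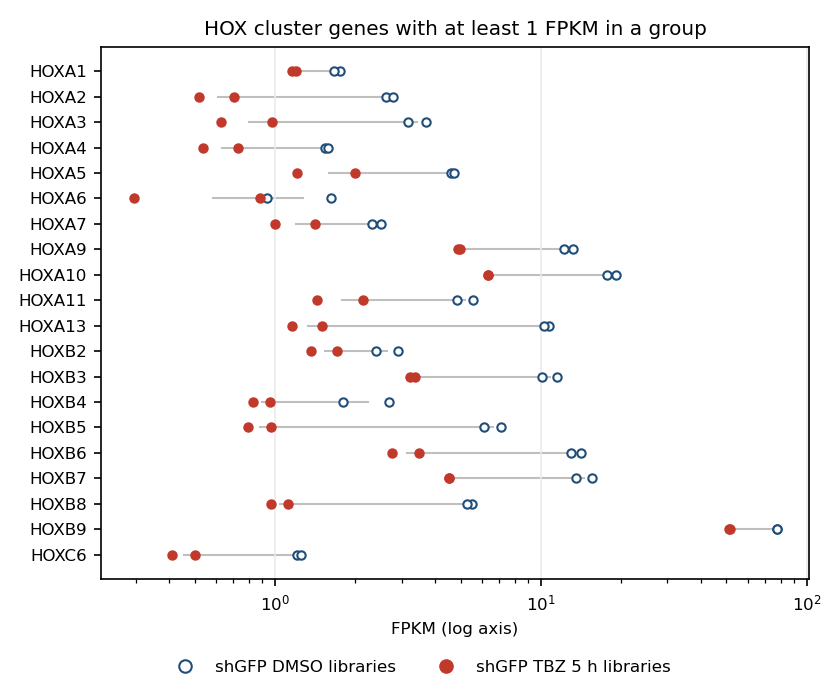
FPKM (log axis) of the 20 HOX cluster genes tested in the 4 shGFP libraries, open points for DMSO and filled points for TBZ, with a grey line between group means. Filled points lie to the left of open points for each gene, HOXB9 being the most abundant.

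In the list of homeobox, HNF, GATA, FOX and SOX factors, which includes most of those HOX genes, 41 of 61 (67.2%) fell and 8 rose (40 and 10 with library medians set equal). Without the HOX cluster genes, a count added after seeing the data, 24 of 44 (54.5%) fell and 8 (18.2%) rose, against 37.3% and 19.1% of all genes. GATA2, a zinc finger factor, lay at 10.2 and 9.94 FPKM under DMSO and at 1.08 and 1.14 FPKM after TBZ (log2 change -2.39, SE 0.095, limma adjusted p = 8.88e-07). HNF4A, a nuclear receptor that maintains the intestinal epithelium and was named here after its values were seen, lay at 7.71 and 7.53 FPKM under DMSO and at 2.76 and 2.96 FPKM after TBZ (log2 change -1.16, SE 0.083, limma adjusted p = 2.25e-05). Among the 8 rises were FOXO1 and FOXO3, forkhead factors restrained by insulin signalling (from 6.81 and 6.26 FPKM to 18.4 and 17.7 FPKM and from 7.14 and 7.30 FPKM to 11.5 and 11.5 FPKM). SPDEF, an ETS factor of goblet cells, fell from 6.61 and 5.68 FPKM to 2.10 and 1.85 FPKM. IRS1, the docking protein of insulin receptors, lay at 8.73 and 8.23 FPKM under DMSO and at 2.26 and 2.398 FPKM after TBZ (log2 change -1.51, SE 0.061, limma adjusted p = 9.40e-07), and IRS2, its relative, lay at 1.97 and 1.76 FPKM under DMSO and at 6.33 and 6.13 FPKM after TBZ (log2 change 1.34, SE 0.070, limma adjusted p = 4.06e-06). The pair moved apart.

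The BMP ligand and its target gene fell, while SMAD3 of the TGF-beta branch rose. BMP4, a secreted ligand of the TGF-beta family, lay at 71.9 and 67.4 FPKM under DMSO and at 7.45 and 6.82 FPKM after TBZ (log2 change -3.12, SE 0.063, limma adjusted p = 3.49e-08), which is 9.77-fold lower by means. ID1, a target of BMP signalling that blocks basic helix-loop-helix factors, lay at 48.4 and 46.4 FPKM under DMSO and at 14.1 and 14.5 FPKM after TBZ (log2 change -1.66, SE 0.065, limma adjusted p = 8.57e-07). SMAD3, which carries TGF-beta and activin signals, lay at 23.5 and 25.2 FPKM under DMSO and at 72.0 and 70.6 FPKM after TBZ (log2 change 1.51, SE 0.042, limma adjusted p = 1.54e-07). TGFBR2, the TGF-beta receptor, fell from 16.9 and 18.7 FPKM to 11.4 and 11.2 FPKM. The list of IRF, STAT, SMAD and TGF-beta genes had 22 rises and 12 falls among 44. IRF1, an interferon response factor, rose from 6.51 and 6.58 FPKM to 37.5 and 37.3 FPKM and STAT5A from 0.763 and 0.865 FPKM to 5.09 and 5.20 FPKM.

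Among stress-related factors, BHLHE40, a circadian and hypoxia-linked repressor, lay at 1.30 and 0.685 FPKM under DMSO and at 22.0 and 22.3 FPKM after TBZ (log2 change 3.56, SE 0.13, limma adjusted p = 5.32e-07). ETS1 lay at 1.17 and 1.30 FPKM under DMSO and at 21.6 and 20.4 FPKM after TBZ (log2 change 3.30, SE 0.11, limma adjusted p = 3.82e-07). KLF6, a zinc finger factor induced by injury, lay at 26.4 and 30.5 FPKM under DMSO and at 212 and 205 FPKM after TBZ (log2 change 2.83, SE 0.062, limma adjusted p = 5.33e-08). The controls of the first 2 were near or below 1 FPKM, so their log2 changes depend on the added 1. KLF13 fell from 11.4 and 11.1 FPKM to 3.55 and 3.68 FPKM and CREB3L1, a membrane-bound bZIP factor, from 8.63 and 8.01 FPKM to 2.16 and 2.45 FPKM. The bZIP list, which leaves out AP-1, had 19 rises and 6 falls among 34 (20 and 5 with library medians set equal), with NFE2L3 rising from 31.0 and 32.4 FPKM to 82.9 and 81.7 FPKM and CEBPD from 4.54 and 3.60 FPKM to 10.3 and 12.98 FPKM. MAFF, a small MAF factor, lay at 10.5 and 11.8 FPKM under DMSO and at 50.1 and 49.1 FPKM after TBZ (log2 change 2.06, SE 0.053, limma adjusted p = 1.13e-07).

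Zinc finger and nuclear receptor genes also moved in both directions. HIVEP1 and HIVEP2, large zinc finger factors that bind NF-kB-like sites, rose from 4.00 and 3.81 FPKM to 12.8 and 12.8 FPKM and from 4.86 and 4.803 FPKM to 20.7 and 20.6 FPKM. PRDM1, a repressor that ends cell programs, rose from 1.78 and 1.64 FPKM to 7.16 and 7.92 FPKM, and ZBTB2 and ZBTB14 fell by 0.96 and 0.96 on the log2 scale. NR4A1, an orphan receptor of the immediate early response, lay at 0.779 and 1.25 FPKM under DMSO and at 15.9 and 14.4 FPKM after TBZ (log2 change 3.01, SE 0.12, limma adjusted p = 7.86e-07). PPARD, a fatty acid sensor, rose from 6.35 and 6.36 FPKM to 16.5 and 16.5 FPKM, while NR1H3, the oxysterol receptor LXRα, fell from 18.3 and 18.7 FPKM to 10.99 and 10.5 FPKM and ESRRA, a driver of mitochondrial genes, from 9.29 and 9.59 FPKM to 5.86 and 5.29 FPKM. ARID5B fell from 8.24 and 7.54 FPKM to 1.93 and 1.94 FPKM (log2 change -1.60). Symbols starting with ZNF gave 166 falls (54.8%) and 27 rises among 303 genes, and 139 and 34 with library medians set equal.

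**Figure D4:**
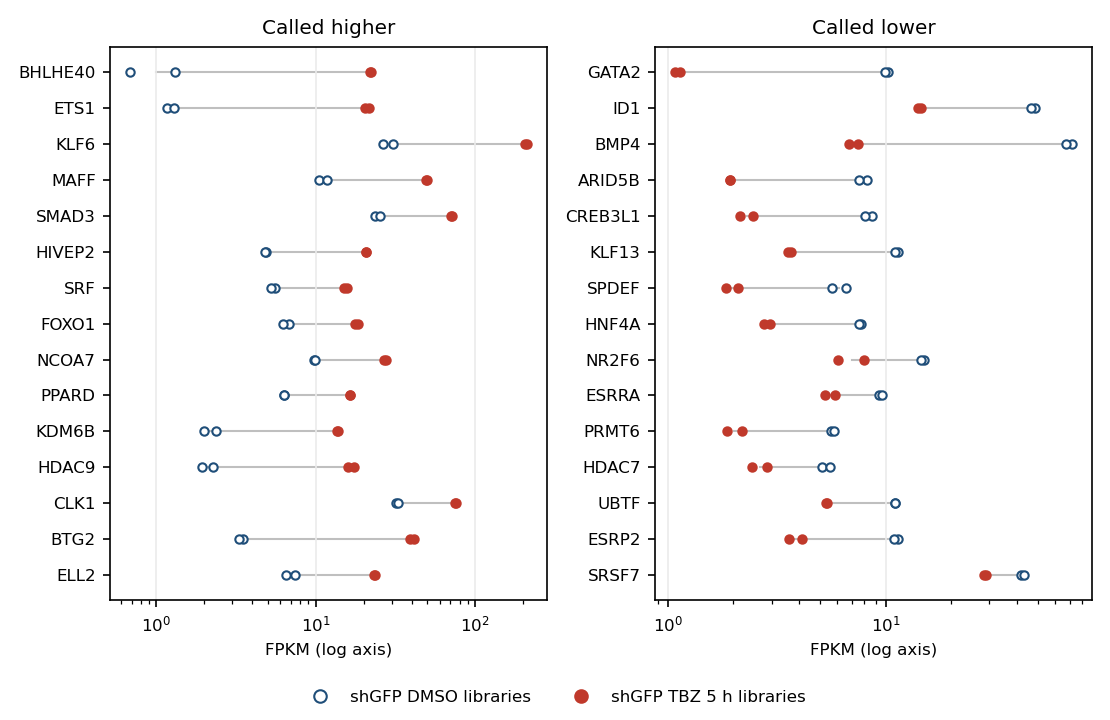
FPKM (log axis) of regulators that rose (left panel) and that fell (right panel) in the 4 shGFP libraries, open points for DMSO and filled points for TBZ, with a grey line between group means. No drawn gene's conditions overlap, which was a condition of being named for all but HNF4A. The mean of GATA2 was 9.08-fold and that of BMP4 9.77-fold lower after TBZ.

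Promoter sequence was searched for 14 short motifs in the 250 bases before the first start that RefSeq lists for a gene (GRCh38.p14). A promoter was found for 8561 of the 10364 genes tested and for 310 of the 382 genes named by rule. The cAMP response element TGACGTCA, read on either strand, was in 266 promoters (3.11%). Of those genes 67 (25.2%) rose and 58 (21.8%) fell, against 18.9% and 37.3% of all promoters searched. The AP-1 motif TGANTCA was in 325 promoters (3.8%), of whose genes 31.7% rose and 30.2% fell. The E-box CACGTG was in 791 (9.24%), with 17.7% and 42.5%. Among the other motifs the shares varied: 20.3% rose and 36.4% fell with the NF-kB motif and 20.8% and 34.2% with the antioxidant element. The C/EBP-ATF element, in 113 promoters, gave 24.8% and 37.2%. The heat shock motif, in only 24 promoters, gave 25% and 33.3%. The metal response element gave 18.5% and 38.3%, and the xenobiotic element core GCGTG 18.8% and 36.4%. These are counts over genes that share libraries, with no test.

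Of the 310 named genes with a promoter 6 hold TGACGTCA, against 266 (3.11%) of the 8561 promoters searched, so the motif is not enriched among them. Their upstream stretches, ending at the base before the start, are shown with these letters in capitals. The genes come from different groups above. MAFF, EPHA2, CNNM4, CCNL1 and SLC25A25 rose, and SLC25A36, a pyrimidine nucleotide carrier, fell from 21.4 and 22.4 FPKM to 16.7 and 16.6 FPKM. SRF, the serum response factor, holds 2 matches of the CArG box, the motif bound by SRF itself, which is in 84 promoters (0.981%). Of the genes with a CArG box 31% rose and 38.1% fell, and 6 named genes hold one.
MAFF (chr22:38201874-38201993, plus strand): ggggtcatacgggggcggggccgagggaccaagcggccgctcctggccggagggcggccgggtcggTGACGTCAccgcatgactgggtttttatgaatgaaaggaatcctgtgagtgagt
EPHA2 (chr1:16156070-16156189, minus strand): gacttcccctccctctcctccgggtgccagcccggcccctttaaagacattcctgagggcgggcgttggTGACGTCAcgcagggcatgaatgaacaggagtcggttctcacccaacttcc
CNNM4 (chr2:96760782-96760901, plus strand): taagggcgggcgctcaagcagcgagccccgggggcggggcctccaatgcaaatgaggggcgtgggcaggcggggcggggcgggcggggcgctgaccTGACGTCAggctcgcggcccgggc
CCNL1 (chr3:157160148-157160267, minus strand): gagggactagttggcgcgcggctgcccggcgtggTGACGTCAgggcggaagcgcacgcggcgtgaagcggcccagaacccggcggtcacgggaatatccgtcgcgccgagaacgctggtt
SLC25A25 (chr9:128098287-128098506, plus strand): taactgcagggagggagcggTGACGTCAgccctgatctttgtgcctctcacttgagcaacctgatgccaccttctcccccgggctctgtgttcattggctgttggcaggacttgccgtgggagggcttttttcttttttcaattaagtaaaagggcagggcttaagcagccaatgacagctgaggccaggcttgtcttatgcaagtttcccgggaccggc
SLC25A36 (chr3:140941686-140941835, plus strand): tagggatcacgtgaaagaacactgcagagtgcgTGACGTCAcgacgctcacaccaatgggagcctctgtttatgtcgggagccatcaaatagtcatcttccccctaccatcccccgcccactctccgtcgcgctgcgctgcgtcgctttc
SRF (chr6:43171209-43171268, plus strand, CArG boxes in capitals): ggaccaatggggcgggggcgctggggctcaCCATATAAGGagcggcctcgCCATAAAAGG
The first capital stood 54 bases before the start in MAFF, 51 in EPHA2, 24 in CNNM4, 86 in CCNL1, 200 in SLC25A25 and 117 in SLC25A36. A match describes letters in this window, and the direction of change differed among the genes that hold it.

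Single chromatin enzymes changed strongly, while their lists lay near the background. KDM6B, which removes trimethylation from lysine 27 of histone H3, lay at 1.98 and 2.39 FPKM under DMSO and at 13.6 and 13.8 FPKM after TBZ (log2 change 2.21, SE 0.075, limma adjusted p = 3.78e-07). HDAC9, a class II deacetylase, lay at 1.94 and 2.27 FPKM under DMSO and at 15.9 and 17.5 FPKM after TBZ (log2 change 2.51, SE 0.083, limma adjusted p = 3.31e-07), and HDAC7 of the same class lay at 5.09 and 5.56 FPKM under DMSO and at 2.43 and 2.86 FPKM after TBZ (log2 change -0.80, SE 0.086, limma adjusted p = 1.97e-04). The 2 deacetylases moved apart. PRMT6, an arginine methyltransferase, fell from 5.62 and 5.83 FPKM to 2.19 and 1.86 FPKM. Of 55 genes of histone methylation 12 (21.8%) rose and 24 (43.6%) fell, and of 44 of histone acetylation and DNA methylation 8 (18.2%) rose and 19 (43.2%) fell, against 19.1% and 37.3% of all genes.

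Genes of RNA decay had 7 rises of at least 2-fold and none of that size downward among 70 (20 rises and 23 falls in all, and 24 and 16 with library medians set equal). BTG2, which recruits the deadenylase complex, lay at 3.50 and 3.31 FPKM under DMSO and at 41.2 and 38.9 FPKM after TBZ (log2 change 3.22, SE 0.082, limma adjusted p = 1.13e-07). ZFP36, which marks AU-rich messages for decay, lay at 22.0 and 22.2 FPKM under DMSO and at 160.0 and 156 FPKM after TBZ (log2 change 2.78, SE 0.059, limma adjusted p = 4.37e-08). ZC3H12C, an RNase of the Regnase family, rose from 1.08 and 1.03 FPKM to 7.23 and 7.01 FPKM. All 3 act to shorten the life of messages, and the treated values were above the controls in each. UPF1, of nonsense-mediated decay, fell from 6.24 and 6.67 FPKM to 4.64 and 4.53 FPKM.

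Splicing factors had 39 falls (48.8%) and 14 rises (17.5%) among 80, against 37.3% and 19.1% of all genes. With library medians set equal there were 28 falls and 15 rises. CLK1, a kinase of SR proteins, lay at 31.8 and 32.9 FPKM under DMSO and at 74.8 and 75.3 FPKM after TBZ (log2 change 1.19, SE 0.034, limma adjusted p = 1.75e-07). ESRP2, an epithelial splicing regulator, lay at 11.3 and 10.9 FPKM under DMSO and at 4.13 and 3.58 FPKM after TBZ (log2 change -1.32, SE 0.093, limma adjusted p = 1.97e-05). SRSF7 and SRSF10 fell by 0.56 and 0.51 on the log2 scale. ELL2, an elongation factor, rose from 6.47 and 7.38 FPKM to 23.5 and 23.3 FPKM, and CCNL1, a cyclin tied to splicing, from 27.6 and 27.3 FPKM to 55.8 and 52.9 FPKM. UBTF, the factor of ribosomal RNA transcription, fell from 11.1 and 11.1 FPKM to 5.36 and 5.31 FPKM (log2 change -0.93, SE 0.050, limma adjusted p = 4.49e-06). Of 98 genes of ribosome biogenesis and polymerases I and III 38 (38.8%) fell, near the 37.3% of all genes. In that list 11 (11.2%) rose, against 19.1% of all genes. Proteasome genes had 4 rises (9.09%) and 14 falls (31.8%, below the share of all genes) among 44, which turned to 9 and 6 with library medians set equal.

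At the cell surface, 6 junction, desmosome and keratin genes rose and 1 fell by at least 2-fold. CLDN1, a sealing claudin, lay at 23.9 and 25.2 FPKM under DMSO and at 82.0 and 83.5 FPKM after TBZ (log2 change 1.71, SE 0.039, limma adjusted p = 6.24e-08). CLDN2, which forms cation pores, lay at 7.59 and 7.79 FPKM under DMSO and at 2.69 and 2.43 FPKM after TBZ (log2 change -1.29, SE 0.11, limma adjusted p = 6.51e-05). The sealing and the pore-forming claudin moved in opposite directions. PARD6B, a polarity protein, rose from 15.7 and 15.6 FPKM to 40.8 and 41.7 FPKM, and KRT17, a keratin of wounded epithelium, from 6.74 and 6.38 FPKM to 26.9 and 25.7 FPKM. KRT19 fell from 149.7 and 145 FPKM to 92.7 and 99.2 FPKM and TJP3, a scaffold of tight junctions, from 8.76 and 8.62 FPKM to 4.79 and 5.39 FPKM. The junction, desmosome and keratin list had 17 rises and 15 falls among 51.

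Matrix and integrin genes had 18 rises, 12 of them at least 2-fold, and 14 falls with none of that size among 50. The shares were 36.0% and 28.0%, against 19.1% and 37.3% of all genes. THBS1, a matricellular protein that activates TGF-beta, lay at 2.36 and 2.07 FPKM under DMSO and at 31.3 and 29.5 FPKM after TBZ (log2 change 3.29, SE 0.074, limma adjusted p = 6.03e-08). SDC4, a heparan sulfate proteoglycan, lay at 85.3 and 90.4 FPKM under DMSO and at 776 and 718 FPKM after TBZ (log2 change 3.07, SE 0.047, limma adjusted p = 1.23e-08). SDC1, the main epithelial syndecan, lay at 20.1 and 19.3 FPKM under DMSO and at 9.73 and 9.04 FPKM after TBZ (log2 change -0.998, SE 0.053, limma adjusted p = 4.37e-06). The syndecans moved apart, and SDC4 exceeded SDC1 in each of the 4 libraries. PLAU, the urokinase plasminogen activator, rose from 0.746 and 0.677 FPKM to 9.55 and 10.4 FPKM.

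Actin regulators had 29 rises, 10 of them at least 2-fold, and 32 falls among 87; with library medians set equal 34 rose and 20 fell, and under quantile normalization 27 and 35. RHOB, an immediate early small GTPase of endosomes (chr2:20646835-20649201 in hg19), lay at 9.53 and 11.2 FPKM under DMSO and at 198 and 189 FPKM after TBZ (log2 change 4.10, SE 0.066, limma adjusted p = 1.40e-08). RND1, a small GTPase that loosens actin fibres, lay at 1.53 and 2.53 FPKM under DMSO and at 31.9 and 29.2 FPKM after TBZ (log2 change 3.40, SE 0.15, limma adjusted p = 1.93e-06). CYR61, a matricellular protein and target of SRF and YAP, lay at 1.82 and 1.54 FPKM under DMSO and at 16.5 and 15.9 FPKM after TBZ (log2 change 2.69, SE 0.077, limma adjusted p = 1.67e-07). By means they were 18.7-fold, 15.1-fold and 9.67-fold higher. ACTB, beta-actin, rose from 711 and 711 FPKM to 991 and 1025 FPKM, SRF from 5.52 and 5.25 FPKM to 15.1 and 15.8 FPKM, and RHOU, an atypical small GTPase, fell from 5.56 and 5.78 FPKM to 2.05 and 2.31 FPKM.

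Receptors shifted as well. EPHA2, an ephrin receptor, lay at 19.1 and 19.7 FPKM under DMSO and at 69.0 and 66.2 FPKM after TBZ (log2 change 1.75, SE 0.046, limma adjusted p = 1.17e-07), and EPHB4 lay at 17.7 and 18.9 FPKM under DMSO and at 6.57 and 6.17 FPKM after TBZ (log2 change -1.39, SE 0.079, limma adjusted p = 6.19e-06). F2R, the thrombin receptor, lay at 9.47 and 10.6 FPKM under DMSO and at 2.22 and 2.47 FPKM after TBZ (log2 change -1.72, SE 0.084, limma adjusted p = 2.68e-06). The 2 ephrin receptors moved apart. PDGFB, a platelet-derived growth factor chain, rose from 1.499 and 1.29 FPKM to 7.12 and 7.47 FPKM, FZD7, a WNT receptor, from 2.60 and 2.97 FPKM to 9.14 and 9.27 FPKM, and JAG1, a Notch ligand, from 5.03 and 5.45 FPKM to 13.7 and 12.98 FPKM. LGR4, an R-spondin receptor, fell from 15.98 and 15.04 FPKM to 8.09 and 7.25 FPKM, and RGS2, a brake on G proteins, fell by 0.68 on the log2 scale. Receptor tyrosine kinases and ephrins had 15 rises (31.2%) and 15 falls (31.2%) among 48. G protein-coupled receptors and regulators had 11 (22.4%) and 23 (46.9%) among 49, against 19.1% and 37.3% of all genes.

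Large falls outside these groups included SLITRK6, a neuronal type membrane protein, which fell from 10.9 and 9.72 FPKM to 0.511 and 0.412 FPKM, and TNS4, a tensin of focal adhesions, from 33.2 and 32.6 FPKM to 5.09 and 4.52 FPKM. Several of the steepest values rest on exact zeros and get no fold. DNAJB4 was listed at 0 in both DMSO libraries and at 20.0 and 15.1 FPKM after TBZ, and GLIPR1 at 0 and at 13.5 and 13.7 FPKM. MGAT4B was listed at 39.3 and 40.2 FPKM under DMSO and at 0 in both TBZ libraries, and BRI3 at 35.9 and 33.2 FPKM and at 0. In total 40 tested genes were listed at 0 in both shGFP DMSO libraries and 44 in both TBZ libraries, of which 14 were called higher and 18 lower. Leaving out the 177 genes with a 0 in any of the 8 libraries, a step added after seeing the data, gave 1982 rises and 3953 falls.

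The same treatment in shMLKL cells has its own controls, so the calls can be set side by side. Of the 1980 genes that rose in shGFP cells 1366 (69.0%) were called higher in shMLKL cells (against 20.0% of all genes tested there), 81 (4.09%) lower and 533 (26.9%) not called. Of the 3864 that fell 1443 (37.3%) were called lower there (against 17.6% of all genes), 89 (2.3%) higher and 2332 (60.4%) not called. The difference of effects was itself tested and called for 2306 genes: 794 (7.66%) more positive and 1512 (14.6%) more negative in shGFP cells. The count was 1314 without DMSO library 1, 1452 without DMSO library 2, 1466 without TBZ library 1 and 1417 without TBZ library 2. Starting levels differed between the lines for some genes, such as GATA2, which lay at 2.50 and 3.23 FPKM under DMSO and at 1.31 and 1.30 FPKM after TBZ in shMLKL cells.

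By group, 25 of the 87 actin genes had a more positive change in shGFP cells and 3 a more negative one, against 7.66% and 14.6% of all genes. Other lists also differed between the lines. Of 58 genes of DNA replication and mitosis 3 were more positive and 31 more negative in shGFP cells. RHOB changed by 4.10 in shGFP and by 0.90 in shMLKL cells (difference 3.20, SE 0.094, limma adjusted p = 2.70e-06). HOXA13 changed by -2.30 and -0.28 (difference -2.02, SE 0.12, limma adjusted p = 4.66e-05). Its DMSO means were 10.5 FPKM in shGFP and 3.72 FPKM in shMLKL cells, and its TBZ means 1.34 and 2.89 FPKM. SGMS2 changed by 1.23 and 0.53 (difference 0.70, limma adjusted p = 3.15e-04). Its DMSO means were 13.65 FPKM in shGFP and 24.2 FPKM in shMLKL cells, and its TBZ means 33.3 and 35.5 FPKM. The lines thus lay farther apart under DMSO than after TBZ. Effects were close in size for HDAC9, IRS1 and ID1, whose differences were 0.21 (SE 0.12), 0.02 (SE 0.086) and 0.03 (SE 0.093) and were not called. CYP1B1 went the other way, with 1.85 against 3.15 (difference -1.30, limma adjusted p = 8.39e-05). Its DMSO means were 9.22 FPKM in shGFP and 2.46 FPKM in shMLKL cells, and its TBZ means 35.9 and 29.8 FPKM.

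**Figure D5:**
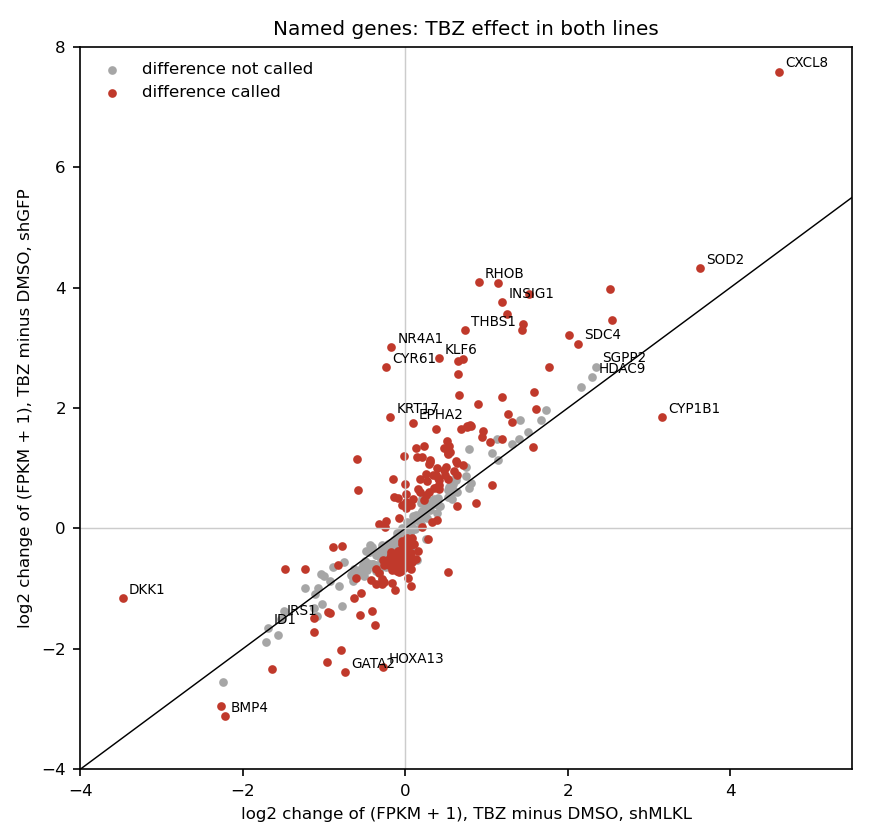
Log2 change of (FPKM + 1), TBZ minus DMSO, in shGFP (vertical axis) and shMLKL cells (horizontal axis) for 371 named genes, leaving out 11 listed at 0 in a group; the diagonal marks equal change and red points the 197 genes with a called difference. RHOB, THBS1, CYR61, KRT17 and DKK1 stand above the diagonal, and CYP1B1, HOXA13 and GATA2 below it.

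Parental cells after 4 h, in another experiment and with 1 library per condition, give a description with no test. Of 9310 genes with at least 1 FPKM in either library, 605 were listed at 0 in 1 of them and were left out. Among the others, 1402 of 1722 genes called higher in shGFP cells (81.4%) were higher in parental TBZ cells, and 2868 of 3261 called lower (87.9%) were lower. Over all 8705 genes compared the shares were 35.8% higher and 64.2% lower. For changes of at least 2-fold they were 97.2% of 320 rises and 97.2% of 109 falls. PFKFB3 had 4.31 FPKM under DMSO and 23.6 FPKM after TBZ in parental cells, SLC25A22 30.3 FPKM under DMSO and 90.6 FPKM after TBZ, RHOB 43.9 FPKM under DMSO and 417 FPKM after TBZ and BMP4 153 FPKM under DMSO and 9.81 FPKM after TBZ. KRT17 had 6.57 FPKM under DMSO and was listed at 0 after TBZ there, and SGPP2 had 8.62 FPKM and was listed at 0. Of the genes called lower in shGFP cells 393 (12.1%) were higher in parental TBZ cells. Among these, MAT2A had 59.96 FPKM under DMSO and 95.4 FPKM after TBZ and CERS2 30.95 and 94.9 FPKM.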

How the data were processed

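RNA-seq values were taken from a table of 8 libraries that the authors deposited as FPKM per gene line. Its header does not name the unit; the parental tables the authors deposited hold FPKM per RefSeq transcript, and these were summed per gene. GATK, STAR 2.4.0f1, Cufflinks 2.2.1 and TopHat2 2.0.13 are the tools, and hg19 the build, per the submitters' processing notes; which tool made which file is not given in the sources used here. Of 29437 lines, 3300 repeated another exactly, and of 19128 symbols 384 stood on more than 1 line, of which the line of highest mean was used. The table gives no counts, so no counting interval was computed; relative depth came from the steps between low values.

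Limma 3.58.1 (R 4.3.3) was run on log2(FPKM + 1) over 10364 genes with a group mean of at least 1 FPKM and all 8 libraries (4 residual and 3.46 prior degrees of freedom), with two-sided p-values adjusted by Benjamini-Hochberg over all genes and a threshold of 0.05. The script was tested on simulated data. Same-numbered libraries did not deviate together (residual correlations -0.066 to 0.0282), so no block was used. Named genes are, per list, the 3 largest called rises and falls whose higher group averaged 5 FPKM or more and whose groups did not overlap, and the highest member; beyond the lists, the 15 largest rises and falls, the 5 highest transcripts and MLKL. Members and lists were chosen with earlier results of these data known. Promoters are from RefSeq GRCh38.p14; of 14 motifs, 2 (the CArG box and GCGTG) were added after seeing the data. Alternatives were scaling, pseudocount, filter, repeated lines, libraries in the fit, replicate block, leaving out each shGFP library and, added after seeing the data, leaving out genes listed at 0. Some genes are not reported here. Gene spans in hg19 are those of the deposited RefSeq transcripts.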

Additional observations from a re-analysis of the deposited data

Results flagged for a closer look

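The TBZ effect differed between shGFP and shMLKL cells, by a limma interaction contrast with Benjamini-Hochberg adjustment, for 2306 genes, and 204 of the 382 named genes were among them. Of these, 170 tested genes and 8 named genes were called in opposite directions in the 2 lines, among them the following named genes. CYR61 changed by 2.69 in shGFP and -0.24 in shMLKL cells (difference 2.927, limma adjusted p = 6.78e-06). KRT17 changed by 1.85 and -0.19 (difference 2.039, limma adjusted p = 7.42e-06). GDF15, a stress cytokine, changed by 1.15 and -0.59 (difference 1.741). SAT1 changed by 0.83 and -0.16 (difference 0.9863), and CHKA, choline kinase, by 0.12 and -0.24 (difference 0.3645). MCEE, methylmalonyl-CoA epimerase, changed by -0.73 and 0.53 (difference -1.253), and SLC12A2, the sodium potassium chloride cotransporter, by -0.17 and 0.28 (difference -0.4505).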

How the results depend on the processing

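The counts of rises and falls stayed within 1.5 times of 1980 and 3864 under each alternative run, from 1626 to 2345 and from 2800 to 3958. Leaving out 1 shGFP library, with the lone library assumed to vary like the other groups, gave 1626 to 1747 rises, 2950 to 3174 falls and 1314 to 1466 genes with a called difference between lines. Fewer samples entered those fits. With the replicate number as a block there were 1939 rises, 3772 falls and 2062 called differences, and 4 of 382 named genes lost their call. Library medians set equal turned the sign of the log2 change of GAPDH (0.053), SCD (0.022), ETFA (0.064), MCCC2 (0.057), BSG (0.012), PRMT1 (0.044), NPM1 (0.038), PABPC1 (0.0059) and RPS6 (0.062). Quantile normalization turned ODC1 (-0.033), HSPD1 (-0.088), PPARG (-0.032), PSMA4 (-0.076), EEF1A1 (-0.434), PTK2 (-0.058), CSNK1A1 (-0.052) and RPS6 (0.0081). With 1 library left out the log2 change spanned 0: GAPDH from -0.027 to 0.0038, ETFA from -0.017 to 0.016, MCCC2 from -0.045 to 0.031, ODC1 from -0.0069 to 0.049, MT1E from -0.484 to 0.148, PRMT1 from -0.052 to 0.011, NPM1 from -0.056 to 0.0028, CSNK1A1 from -0.012 to 0.041 and RPS6 from -0.037 to 0.033. The cause was not tested. Depth cannot be stated in reads, and exact zeros can be failed estimates.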
